A study of Mus musculus with 6 samples.

Results

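Hox genes encode homeodomain transcription factors and lie in 4 clusters, in which the order of the genes along the chromosome follows the order of their expression along the body axis. Genes at the 3′ end of a cluster (low paralog numbers) are used in the anterior hindbrain and neck, those at the 5′ end (high paralog numbers) in the posterior trunk, tail, limb and urogenital tract, and in mesoderm cultures they mark how posterior the cells are. In the heart fields, the 3′ Hox genes respond to retinoic acid and mark the posterior progenitors that give rise to the atria and outflow tract. Hox proteins bind DNA with TALE homeodomain cofactors (the Pbx, Meis and Pknox proteins), Cdx factors activate the central Hox genes, Polycomb complexes keep silent Hox genes closed and Trithorax complexes keep active ones open.

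The 41 Hox rows described here, among the 25701 genes of the deposited expression table, were chosen by symbol: 36 coding genes of the Hoxa, Hoxb, Hoxc and Hoxd clusters and 5 non-coding genes (Hotairm1, Hoxa11os, Hoxb3os, Hoxb5os and Hoxd3os1). PolyA RNA was sequenced from cardiac progenitor (CP) cells, which were differentiated from mouse embryonic stem cells (ESCs) of the 46C line in serum-free medium with BMP4, Activin A and VEGF, and then with VEGF and fibroblast growth factors. The 6 libraries are 3 of 46C-Ctrl (Ctrl_1 to Ctrl_3) and 3 labelled Zhx1-KO (KO_1 to KO_3), made from a line in which Zhx1, a gene for a zinc finger and homeobox protein, was targeted in 46C with Cas9 and a pair of guides. Both groups carry the green fluorescent protein reporter of 46C at Sox1. How many knockout clones were used was not given in the sources used here, and the labels do not say whether the 3 libraries of a group came from separate differentiations. The study's methods speak of independent experiments for its data in general, without naming these libraries. If the libraries of a group share a differentiation, p-values set the group difference against technical spread only and do not speak for other differentiations. Whether fewer cells or less RNA per cell lies behind a lower value in such bulk samples cannot be told apart.

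The table holds gene counts scaled by 1 factor for each library, called normalized counts here. In each library they are whole multiples of a step of 0.880 to 1.05, so a normalized count near 1 is a single step. Libraries summed to 13769967 to 15940874 steps. Ctrl_2 stood apart from the other 46C-Ctrl libraries, with 2.77% of its values in mitochondrial genes against 1.72% to 1.87% in the other 5 libraries. Zhx1 itself had 460, 181 and 457 normalized counts in Ctrl_1 to Ctrl_3 and 225, 325 and 308 in KO_1 to KO_3, and its difference did not pass the test (log2 fold change -0.25, standard error (SE) 0.35, adjusted p = 0.579 from limma). Without Ctrl_2 it did (-0.70, adjusted p = 0.0121). The transcript in these libraries therefore does not by itself settle the knockout labels, and the second group is named by its label throughout. The study had checked its knockout line as ESCs by other measures, with PCR of the gene, Zhx1 mRNA and Zhx1 protein.

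Most Hox genes had lower values in the Zhx1-KO libraries, and the posterior genes of the Hoxa, Hoxc and Hoxd clusters were at or near 0 there. The sum of the 36 coding genes was 1196, 1061 and 1126 normalized counts in Ctrl_1 to Ctrl_3 and 336, 338 and 339 in KO_1 to KO_3. The means were 1128 ± 67.3 and 337 ± 1.66 (SD, n = 3 each), so the groups did not overlap and the mean was 3.34-fold lower. Of the 41 members, 21 averaged at least 10 normalized counts across all 6 libraries and were tested with limma on log2(normalized count + 1), with adjustment over all 15372 genes tested. A log2 fold change is on this scale, which understates changes of low genes. Lower were 11 of the 21 (52.4%), against 26.4% of all genes tested. These were Hoxa13, Hoxb2 to Hoxb6, Hoxc13, Hoxd1, Hoxd8, Hoxd9 and Hoxd13. Higher were 3 of the 21 (14.3%), against 25.6% of all genes tested, namely Hoxa2, Hoxd3 and Hoxb5os. The other 7 (Hotairm1, Hoxb1, Hoxb3os, Hoxb7, Hoxb8, Hoxb9 and Hoxd4) did not pass. The median log2 fold change of the 21 was -2.08, beside 0.01 over all genes tested. Some of the 21 passed the filter only through the group where they are high, and this moves their median. In a fit with no filter the median of all 41 was -2.15, beside 0.01 over all genes. For a single gene an exact two-sided permutation test of 3 libraries against 3 allows no p below 0.1, and 19 of the 21 members reached that value.

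**Figure D1:**
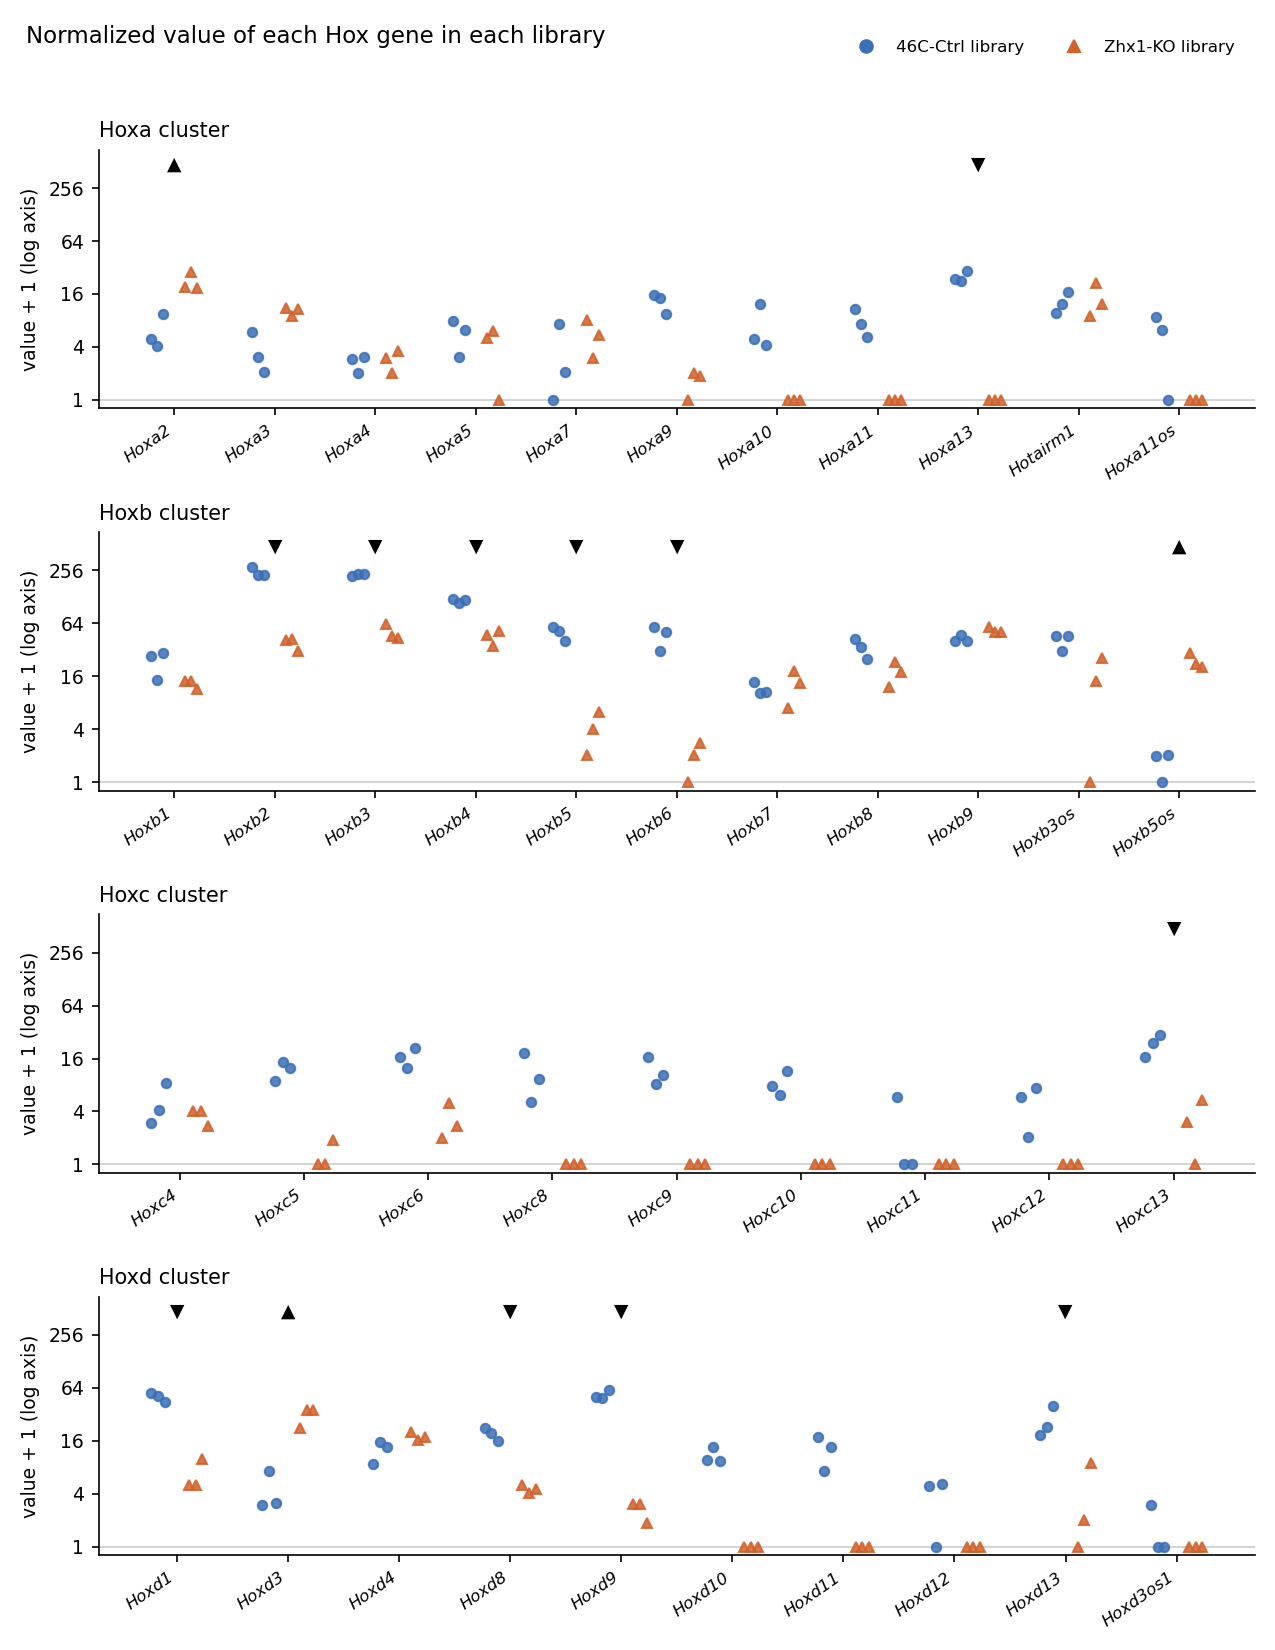
Normalized count plus 1 (log axis) of each Hox gene in each library, by cluster and in order of paralog number, with non-coding genes last; circles are 46C-Ctrl libraries and triangles Zhx1-KO libraries. Filled arrowheads above a gene mark the 11 genes that were lower and the 3 that were higher by limma, and a point at 1 is a gene listed at 0.

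All 41 members can be described without a filter. Every Zhx1-KO library lay below every 46C-Ctrl library for 25 members (61.0%), against 21.0% of all genes in the table, and above for 6 (14.6%), against 21.3%. The libraries overlapped for the other 10. In the fit with no filter on low values, 22 members (53.7%) were lower, against 16.0% of all genes, and 3 (7.32%) were higher, against 15.7%. The 20 members under the filter had 46C-Ctrl means of 0.650 to 15.7. Of them 11 (55.0%) lay below in every Zhx1-KO library, against 7.08% of all genes under the filter, and 1, Hoxa3, lay above, against 7.86%. A member that passed the filter only through the group where it is high had to differ. That holds for 8 of the 11 lower genes (Hoxa13, Hoxb5, Hoxb6, Hoxc13, Hoxd1, Hoxd8, Hoxd9 and Hoxd13), whose Zhx1-KO means were under 10. It holds too for all 3 higher genes, whose 46C-Ctrl means were 0.677 to 5.15. The counts over all 41 are the ones without that selection.

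In all 3 Zhx1-KO libraries 13 members were listed at 0 (Hoxa10, Hoxa11, Hoxa11os, Hoxa13, Hoxc8 to Hoxc12, Hoxd3os1 and Hoxd10 to Hoxd12), and none was listed at 0 in all 46C-Ctrl libraries. Their 46C-Ctrl means ran from 0.650 (Hoxd3os1) to 24.2 (Hoxa13). The share of all genes listed at 0 in this way was not counted, so the 13 are a description only. A value at or near 0 in this table can stand beside far higher values of the same group, so a 0 was not taken as a silent gene. Ezh1, a Polycomb methyltransferase gene, had 0.9752, 358 and 0 normalized counts in Ctrl_1 to Ctrl_3 and 844 to 1072 in the Zhx1-KO libraries, and Eed, its partner, had 1.01, 380 and 583 in KO_1 to KO_3 and 757 to 821 in 46C-Ctrl. These 2 genes were picked after their values were seen, and unlike them the 13 members were at 0 in every Zhx1-KO library. No fold is given for a member listed at 0 in a whole group.

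The start regions of 5 tested members show how unlike the sequences upstream of genes that moved together, or apart, can be. Hoxd1 and Hoxa2 are shown by rule, as the tested members of Hoxd and Hoxa reported here with the highest mean over the 6 libraries. Hoxa2 was higher. The others were chosen after their values were seen: Hoxa13 (listed at 0 in the Zhx1-KO libraries), Hoxb4 (lower, with the highest remaining level per kb of the 11) and Hoxd3 (higher). Each line is the longest stretch outside annotated exons in RefSeq's promoter window of the gene on GRCm38.p6, 5′ to 3′ on the gene's strand, and capitals mark a match to a motif that was searched. The stretches lie at chr2:74762897-74762979, plus strand, for Hoxd1, at chr6:52260881-52261130, minus strand, for Hoxa13, at chr11:96318017-96318266, plus strand, for Hoxb4, at chr6:52164832-52165081, minus strand, for Hoxa2, and at chr2:74711743-74711926, plus strand, for Hoxd3.
Hoxd1: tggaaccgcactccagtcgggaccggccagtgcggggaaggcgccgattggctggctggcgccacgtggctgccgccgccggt
Hoxa13: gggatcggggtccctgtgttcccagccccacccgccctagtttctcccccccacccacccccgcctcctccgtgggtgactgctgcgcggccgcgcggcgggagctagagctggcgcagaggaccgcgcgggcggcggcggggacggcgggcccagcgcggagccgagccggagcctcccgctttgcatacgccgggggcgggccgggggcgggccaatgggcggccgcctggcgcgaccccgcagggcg
Hoxb4: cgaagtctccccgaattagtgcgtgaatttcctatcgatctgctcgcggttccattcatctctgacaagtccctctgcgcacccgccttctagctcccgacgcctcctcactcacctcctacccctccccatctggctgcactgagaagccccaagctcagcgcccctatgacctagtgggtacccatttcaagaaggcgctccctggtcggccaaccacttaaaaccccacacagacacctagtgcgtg
Hoxa2: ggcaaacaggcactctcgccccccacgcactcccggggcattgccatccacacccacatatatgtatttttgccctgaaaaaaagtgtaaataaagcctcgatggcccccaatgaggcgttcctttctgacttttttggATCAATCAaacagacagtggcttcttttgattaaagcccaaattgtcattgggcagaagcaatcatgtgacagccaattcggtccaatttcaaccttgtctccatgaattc
Hoxd3: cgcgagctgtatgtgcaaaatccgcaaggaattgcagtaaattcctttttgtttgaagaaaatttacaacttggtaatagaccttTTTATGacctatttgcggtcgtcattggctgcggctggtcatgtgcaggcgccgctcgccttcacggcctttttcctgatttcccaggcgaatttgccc
The Hoxd1 and Hoxa13 stretches are 74.7% and 80.0% G and C, with 11 and 35 CpG dinucleotides. Lengths differ, at 83 bases for Hoxd1, 184 for Hoxd3 and 250 for Hoxa13, Hoxb4 and Hoxa2. The CpG counts and motif matches of the stretches therefore do not compare directly. The Hoxb4 stretch is 58.0% G and C with 14 CpG. The Hoxa2 stretch is 46.4% G and C with 6 CpG and holds TGATNNAT, a core shared by many Pbx and Hox composite sites, on the opposite strand. The Hoxd3 stretch is 47.3% G and C with 11 CpG and holds TTTATG, a Cdx-type core. Of all Hox members, 24 have an entry in the RefSeq promoter table, with 26 windows of 250 bases before and 50 after the start. Their median was 57.7% G and C and 14.5 CpG, beside 52.7% and 7 over all 32851 windows. The whole windows of Hoxd1, Hoxa13, Hoxb4, Hoxa2 and Hoxd3 hold 29, 45, 14, 9 and 20 CpG. On either strand TTTATG stood in 5 Hox windows (19.2%, against 11.9% of all windows), TGATNNAT in 4 (15.4%, against 8.85%) and TATAAA, the TATA box core, in 5 (19.2%, against 13.6%). TTTATG stood in the windows of Hoxa7, Hoxb8, Hoxd3, Hoxd4 and Hoxd11. Of these only Hoxd3 was called in the fit with the filter. The groups overlapped for Hoxa7, Hoxb8 and Hoxd4 did not pass, and Hoxd11, under the filter, lay below in every Zhx1-KO library. A match of these letters is a description of the window and not a binding site.

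The anterior Hox genes, paralogs 1 to 3, pattern the hindbrain and the posterior part of the heart fields. Of the 7 described, 6 were tested. In limma 3 of the 6 were lower, against 26.4% of all genes tested, and 2 were higher, against 25.6%. Of the called genes, Hoxd1, Hoxa2 and Hoxd3 passed the filter only through the group where they are high and had to differ. The 2 with no call were Hoxb1, which did not pass, and Hoxa3, under the filter. None of the 7 had overlapping groups. In every Zhx1-KO library 4 lay below 46C-Ctrl (57.1%, against 21.0% of all genes in the table), and 3 lay above (42.9%, against 21.3%). The summed anterior value fell 3.36-fold, from 557 ± 32.5 to 166 ± 9.53 (SD, n = 3 each), mostly through Hoxb2 and Hoxb3.

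Hoxb2, which acts in rhombomere identity and in the neural crest, was the highest Hox gene of 46C-Ctrl per kb of exon, at 70.0 ± 9.38 normalized counts per kb. Its normalized counts were 282, 226 and 225 in Ctrl_1 to Ctrl_3 and 40.3, 41.5 and 29.9 in KO_1 to KO_3, with no overlap. Its log2 fold change was -2.69 (SE 0.19, adjusted p = 2.3e-05 from limma). Hoxb3, its 5′ neighbour, had 219, 233 and 234 normalized counts in 46C-Ctrl and 62.5, 44.5 and 43.1 in the Zhx1-KO libraries. The log2 fold change was -2.19 (SE 0.18, adjusted p = 4.5e-05). Both genes share exon bases with Hoxb3os on the opposite strand (953 in Hoxb2 and 2250 in Hoxb3). The authors mapped reads with the strand of the library, but whether reads were counted by strand was not given in the sources used here.

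Hoxd1 and Hoxb1, which are among the earliest Hox genes in the embryo and respond to retinoic acid, were both below 46C-Ctrl in every Zhx1-KO library. Hoxd1 had 55.6, 50.7 and 43.2 normalized counts in Ctrl_1 to Ctrl_3 and 4.03, 4.04 and 8.80 in KO_1 to KO_3, a log2 fold change of -3.01 (SE 0.38, adjusted p = 0.00045). Hoxb1 had 26.3, 13.5 and 28.5 against 13.1, 13.1 and 10.6. Ctrl_2 was nearly as low as the Zhx1-KO libraries, and Hoxb1 did not pass (log2 fold change -0.78, SE 0.39, adjusted p = 0.132). It passed without Ctrl_2 (-1.10, adjusted p = 0.036). Hotairm1 is the non-coding RNA at the 3′ end of Hoxa. It had 8.78, 11.4 and 15.8 normalized counts against 8.06, 20.2 and 11.4, with overlapping groups (log2 fold change 0.08, 95% interval -0.99 to 1.15, adjusted p = 0.903).

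The 3 anterior genes that were above 46C-Ctrl were Hoxa2, Hoxa3 and Hoxd3. Hoxa2, a selector of the second branchial arch, had 3.90, 3.11 and 8.44 normalized counts in Ctrl_1 to Ctrl_3 and 18.1, 27.3 and 17.6 in KO_1 to KO_3. Its log2 fold change was 1.91 (SE 0.48, adjusted p = 0.011). Hoxa3, which acts in the third pharyngeal arch, had 4.88, 2.07 and 1.05 against 10.1, 8.09 and 9.68, was under the filter, and did not pass in the fit without it. Hoxd3, which acts in the cervical vertebrae, had 1.95, 6.21 and 2.11 against 21.2, 34.4 and 35.2, a log2 fold change of 2.92 (SE 0.51, adjusted p = 0.0021). Hoxd1, in the same cluster as Hoxd3, moved the opposite way. Hoxd3 shares 2225 exon bases, 53.1% of its exons, with Gm28230, a read-through gene model on the same strand, and 388 with Hoxd4. Gm28230 went from 15.6, 20.7 and 27.4 normalized counts to 10.1, 4.04 and 0 (log2 fold change -2.51, SE 0.86, adjusted p = 0.040), a call that was lost under 8 of the other settings, without any library but KO_1 among them (adjusted p of 0.052 to 0.111). Reads of Hoxd3, Hoxd4 and Gm28230 may have been split between them, which makes the value of each uncertain. The sum of these 3 rows was not tested.

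**Figure D2:**
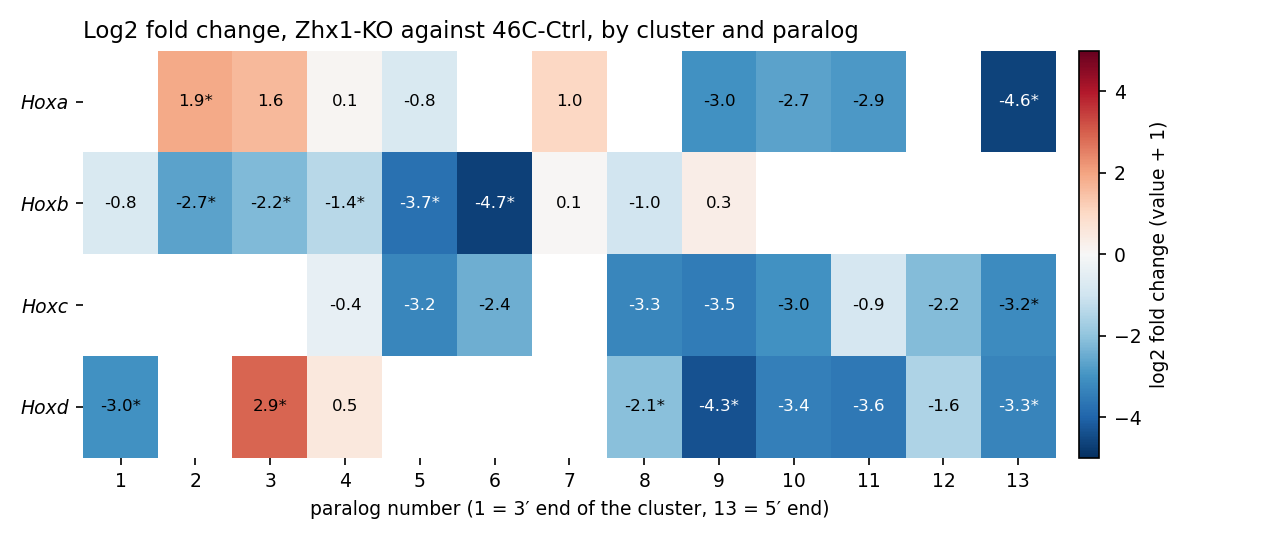
Log2 fold change of each coding Hox gene by cluster (rows) and paralog number (columns), from the limma fit without a filter on low values; blue is lower and red higher in the Zhx1-KO libraries, blank cells have no gene or no row shown here, and * marks genes called in the fit with the filter. The cells shown in the posterior columns 10 to 13 are all blue, and the red cells lie in columns 2 to 4, 7 and 9.

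The central Hox genes, paralogs 4 to 8, pattern the neck and thorax. Of the 14, 7 were tested. Lower were 4 of the 7 (57.1%, against 26.4% of all genes tested), namely Hoxb4, Hoxb5, Hoxb6 and Hoxd8. All of these but Hoxb4 passed the filter only through 46C-Ctrl. In limma 0 were higher, against 25.6% of all genes tested (0 also at an unadjusted p under 0.05). Below 46C-Ctrl in every Zhx1-KO library were 8 (57.1%, against 21.0% of all genes in the table). Above was 1, Hoxd4 (7.14%, against 21.3%), and the groups overlapped for 5 (Hoxa4, Hoxa5, Hoxa7, Hoxb7 and Hoxc4). The summed central value fell from 332 ± 33.1 to 112 ± 7.47 normalized counts, 2.97-fold.

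Along Hoxb the change was not even. Hoxb4, a regulator of blood stem cell growth and of the axial skeleton, had 120, 107 and 117 normalized counts in Ctrl_1 to Ctrl_3 and 46.4, 34.4 and 51.9 in KO_1 to KO_3 (log2 fold change -1.37, SE 0.20, adjusted p = 0.00093). Hoxb5, which acts in lung, gut and the posterior heart field, had 56.6, 50.7 and 39.0 against 1.01, 3.03 and 5.28, a log2 fold change of -3.73 (SE 0.50, adjusted p = 0.00055). Hoxb6, a gene of lateral plate mesoderm and early blood, had 56.6, 30.02 and 49.6 against 0, 1.01 and 1.76, a log2 fold change of -4.66 (SE 0.55, adjusted p = 0.0003). These were means of 45.4 ± 13.8 and 0.924 ± 0.883 (SD, n = 3), the latter from 3 steps in all, so no fold is given.

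The Hoxb genes described here that lie 5′ of Hoxb6, which are Hoxb7 to Hoxb9, did not pass the test. Hoxb7, which acts in the thorax and the kidney, had 12.7, 9.32 and 9.49 normalized counts in 46C-Ctrl and 6.05, 17.2 and 12.3 in the Zhx1-KO libraries, with overlapping groups (log2 fold change 0.07, 95% interval -1.03 to 1.17, adjusted p = 0.917). Hoxb8, which acts in the thorax and in myeloid progenitors, had 41.9, 33.1 and 24.3 against 11.1, 22.2 and 16.7. It lay below in every library but did not pass (log2 fold change -0.96, SE 0.36, adjusted p = 0.057), and it passed under 4 of the 13 other settings that tested it. Hoxb9 is the only posterior Hoxb gene described here. It had 39.0, 45.6 and 39.0 normalized counts against 57.4, 49.6 and 50.2, above in every Zhx1-KO library, and did not pass (log2 fold change 0.34, 95% interval -0.13 to 0.81, adjusted p = 0.197). At 20.4 ± 1.71 normalized counts per kb it was the highest coding Hox gene of the Zhx1-KO libraries, although its distance to Hoxb4 (17.2 ± 3.49 per kb) was within the spread.

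Hoxb lies on chromosome 11, whose 1185 tested genes had a median log2 fold change of 0.42. The medians of the chromosomes of the other clusters were -0.13 (chromosome 6, Hoxa), -0.04 (15, Hoxc) and 0.00 (2, Hoxd). Less the median of chromosome 11, the log2 fold change was -3.11 for Hoxb2, -2.61 for Hoxb3, -1.80 for Hoxb4, -4.16 for Hoxb5 and -5.09 for Hoxb6. Those of Hoxb1 and Hoxb8 became -1.20 and -1.39, and those of Hoxb7 and Hoxb9 changed sign, to -0.36 and -0.08. The part of the chromosome-wide shift in the Hoxb values was not tested.

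In Hoxd, Hoxd8 was lower, with 21.5, 18.6 and 14.8 normalized counts in Ctrl_1 to Ctrl_3 and 4.03, 3.03 and 3.52 in KO_1 to KO_3 (log2 fold change -2.08, SE 0.42, adjusted p = 0.0044). Hoxd4, whose exons overlap those of Hoxd3 and Gm28230, had 7.80, 14.5 and 12.7 against 19.1, 15.2 and 16.7 and did not pass (log2 fold change 0.54, 95% interval -0.33 to 1.42, adjusted p = 0.262). In Hoxc, Hoxc5, Hoxc6 and Hoxc8 had 46C-Ctrl values of 4.14 to 20.04 and Zhx1-KO values of 0 to 4.04 and lay below in every library, while Hoxc4 (1.95 to 7.38 against 1.76 to 3.03) overlapped. In Hoxa the central genes were low in both groups, at 0 to 6.83 against 0 to 7.05.

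The posterior Hox genes, paralogs 9 to 13, are used in the lumbar, sacral and tail regions, in the distal limb and, in the embryo before that, in the allantois and hindgut. Of the 15, 12 lay below 46C-Ctrl in every Zhx1-KO library (80.0%, against 21.0% of all genes in the table). Listed at 0 in all 3 were 10, a count for which no share of all genes was taken. Of the 5 tested, 4 were lower (80.0%, against 26.4% of all genes tested) and Hoxb9 did not pass. These 4 (Hoxa13, Hoxc13, Hoxd9 and Hoxd13) passed the filter only through 46C-Ctrl and had to differ, so their calls are no independent support. Without a filter 12 were lower in limma (80.0%, against 16.0% of all genes) and 0 were higher (0 also at an unadjusted p under 0.05). The posterior Hoxa sum was 50.7, 52.8 and 44.3 normalized counts in Ctrl_1 to Ctrl_3 and 0, 1.01 and 0.880 in KO_1 to KO_3, at most a single step. The posterior Hoxc sum went from 47.8, 36.2 and 54.8 to 2.02, 0 and 4.40, and the posterior Hoxd sum from 95.6, 88.0 and 123 to 2.02, 3.03 and 8.80. These sums did not overlap in any of the 3 clusters, and the share of the posterior genes in the coding Hox sum was 21.2% ± 1.88 in 46C-Ctrl and 17.7% ± 1.63 in the Zhx1-KO libraries. Almost all of the latter was Hoxb9, whose share of the sum went from 3.67% ± 0.546 to 15.5% ± 1.38.

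**Figure D3:**
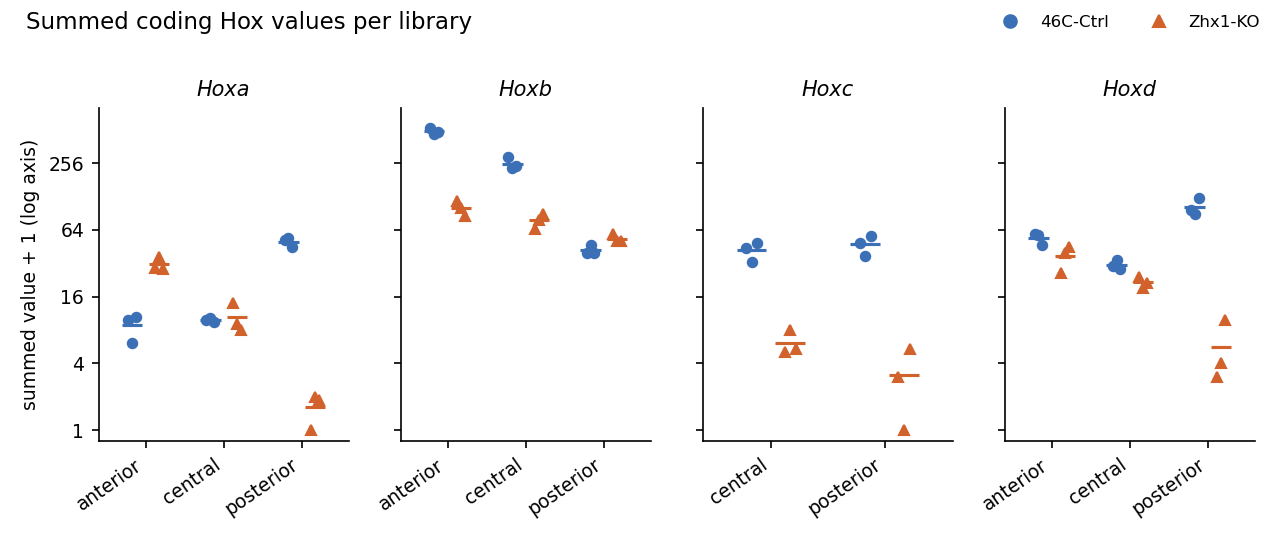
Sum of normalized counts plus 1 (log axis) of the anterior (paralogs 1 to 3), central (4 to 8) and posterior (9 to 13) coding genes of each cluster in each library; circles are 46C-Ctrl, triangles Zhx1-KO, and lines the group means (n = 3). The posterior sums of Hoxa, Hoxc and Hoxd fall to between 0 and 8.80 normalized counts in the Zhx1-KO libraries, while the posterior point of Hoxb, Hoxb9 alone, does not fall.

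Hoxd9 had the smallest adjusted p of the posterior genes. It had 48.8, 47.6 and 59.1 normalized counts in Ctrl_1 to Ctrl_3 and 2.02, 2.02 and 0.880 in KO_1 to KO_3, a log2 fold change of -4.35 (SE 0.40, adjusted p = 8.8e-05). Its means were 51.8 ± 6.30 and 1.64 ± 0.658 (SD, n = 3), the latter from a few steps in all, so no fold is given. All 3 paralogs numbered 13 that are described here, the last genes of their clusters, were lower, and all 3 passed the filter only through 46C-Ctrl. Hoxa13, which acts in the digits, hindgut and allantois, had 22.4, 21.7 and 28.5 normalized counts in 46C-Ctrl and was listed at 0 in every Zhx1-KO library (adjusted p = 0.00027). Its fitted log2 fold change depends on the pseudocount, from -5.62 to -2.81 over all settings. Hoxc13, a gene of the tail and of hair, had 15.6, 22.8 and 28.5 against 2.02, 0 and 4.40 (log2 fold change -3.16, SE 0.70, adjusted p = 0.0067). Hoxd13, the other digit gene, had 17.6, 21.7 and 39.0 against 0, 1.01 and 7.92. Ctrl_3 and KO_3 were the highest of their groups, and the log2 fold change was -3.29 (SE 0.83, adjusted p = 0.012).

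Posterior genes under the filter were low in 46C-Ctrl too. Hoxa9 (8.44 to 14.6 normalized counts), Hoxa10 (3.16 to 11.4), Hoxa11 (4.22 to 9.75), Hoxc9 (7.25 to 15.6), Hoxc10 (5.18 to 10.5), Hoxc12 (1.04 to 6.33), Hoxd10 (8.44 to 12.4) and Hoxd11 (6.21 to 16.6) were above 0 in all 3 46C-Ctrl libraries. In the Zhx1-KO libraries only Hoxa9 among these 8 had a value above 0, of 1.01 at most. Hoxc11 and Hoxd12 were at 0 in some 46C-Ctrl libraries as well. All 3 paralogs numbered 10 lay below in every library, as did 2 of the 3 numbered 11, against 7.08% of all genes under the filter. Hoxc5 and Hoxc10 share 166 exon bases on the same strand, and Hoxa11 shares 800 with Hoxa11os on the opposite strand.

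Hoxb5os was the only non-coding member that was higher. It had 0.9752, 0 and 1.05 normalized counts in Ctrl_1 to Ctrl_3 and 28.2, 21.2 and 19.4 in KO_1 to KO_3, a log2 fold change of 3.89 (SE 0.55, adjusted p = 0.00078). It runs against Hoxb5 and Hoxb6, from 96291024 to 96306910 of chromosome 11 on the minus strand, and the 2 coding genes it spans were those that fell the most in Hoxb. Hoxb5os shares 100 exon bases with Hoxb5, 14.4% of its own exons. At 32.96 ± 6.71 normalized counts per kb it was the highest Hox row of the Zhx1-KO libraries. Hoxb3os, on the minus strand across Hoxb2 and Hoxb3, had 44.9, 30.02 and 45.3 against 0, 13.1 and 24.6 and did not pass (log2 fold change -2.50, SE 1.09, adjusted p = 0.091), with KO_1 and KO_3 far apart. Without KO_3 it passed (-3.43, adjusted p = 0.038). Hoxa11os (0 to 7.80) and Hoxd3os1 (0 to 1.95) were listed at 0 in some 46C-Ctrl libraries and in all Zhx1-KO libraries.

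Summed by cluster, the coding genes of Hoxa went from 65.9 ± 3.25 to 40.3 ± 4.72 normalized counts, those of Hoxb from 789 ± 57.2 to 229 ± 8.25, those of Hoxc from 87.1 ± 17.3 to 7.31 ± 1.39 and those of Hoxd from 186 ± 9.45 to 61.0 ± 11.4 (SD, n = 3 each). The ratios of the means were 0.612, 0.290, 0.0839 and 0.329, and no cluster's libraries overlapped. Hoxc, which has no anterior genes, had the lowest ratio. Hoxb made up 69.96% ± 1.79 of the coding Hox sum in 46C-Ctrl and 67.8% ± 2.78 in the Zhx1-KO libraries, a difference within the spread. The share of Hoxc went from 7.70% ± 1.33 to 2.165% ± 0.402. The median member was at 64.1% of its 46C-Ctrl mean in Hoxa, 38.6% in Hoxb, 11.3% in Hoxd and listed at 0 in Hoxc. By position, it was at 53.9% among anterior, 44.5% among central and 0% among posterior genes.

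Genes around the clusters were tested in the same fit. Beyond the 5′ end of Hoxa lie Evx1, a homeobox gene that arose from the same ancestral cluster and acts in the posterior primitive streak, and its antisense partner Evx1os, 52.6 and 47.5 kb away. Evx1 had 637, 618 and 668 normalized counts in Ctrl_1 to Ctrl_3 and 9.07, 17.2 and 7.04 in KO_1 to KO_3, a log2 fold change of -5.82 (SE 0.29, adjusted p = 4.6e-06). Evx1os had a log2 fold change of -6.67 (SE 0.29, adjusted p = 2.5e-06). Both lie on the same side of the cluster as Hoxa13. The next tested gene, Hibadh, at 285 kb, did not pass (0.14, adjusted p = 0.089), and on the 3′ side Skap2 rose (1.23, SE 0.20, adjusted p = 0.0013). Inside Hoxa, Hoxaas2, an antisense RNA that shares 503 exon bases with Hoxa3, rose from 0, 0 and 3.16 to 25.2, 25.3 and 31.7 normalized counts (4.13, SE 0.68, adjusted p = 0.0016).

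Beside Hoxb, Gm53, a non-coding gene 6.59 kb from Hoxb9, fell from 61.4, 60.04 and 56.9 normalized counts to 11.1, 19.2 and 11.4 (log2 fold change -2.06, SE 0.29, adjusted p = 0.00078), so that Hoxb7 to Hoxb9 lay between lower genes on both sides. Of the 17 tested genes within 500 kb of Hoxb, Gm53 was the 1 that was lower (5.88%, against 26.4% of all genes tested). Higher were 9 (52.9%, against 25.6%), among them Ttll6 (2.56) and Cbx1 (0.69), and Snx11 (-0.09) did not pass. The median of the 17 was 0.69, beside 0.42 over the tested genes of chromosome 11. How much of their rise is the chromosome-wide shift was not tested. Around Hoxc 4 of 18 tested genes were lower (22.2%) and 6 higher (33.3%), shares near those of all genes tested, with Smug1 (0.88), Hnrnpa1 (0.27) and Calcoco1 (0.44) higher and Cbx5 (0.12) not past the test except without Ctrl_2 (0.16, adjusted p = 0.021). The 4 lower genes, named after their values were seen, were Zfp385a (-0.87), Itga5 (-1.06), Tarbp2 (-0.22) and Map3k12 (-0.60), which lie 277 to 404 kb from the cluster. The call of Tarbp2 was lost without any library but KO_3 (adjusted p of 0.061 to 0.122). Inside Hoxd, Haglr, the non-coding RNA beside Hoxd1, fell from 20.5, 18.6 and 22.1 to 0, 4.04 and 0 normalized counts (-3.64, SE 0.75, adjusted p = 0.0047). Outside Hoxd 0 of the 4 tested genes were lower in limma (0 also at an unadjusted p under 0.05). Mtx2 (-0.12, adjusted p = 0.240) and Lnpk (0.21, adjusted p = 0.246) did not pass, and Mrpl23-ps1 (1.21) was higher. Evx2, 8.75 kb from Hoxd13, was at 0 in 4 of the 6 libraries.

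**Figure D4:**
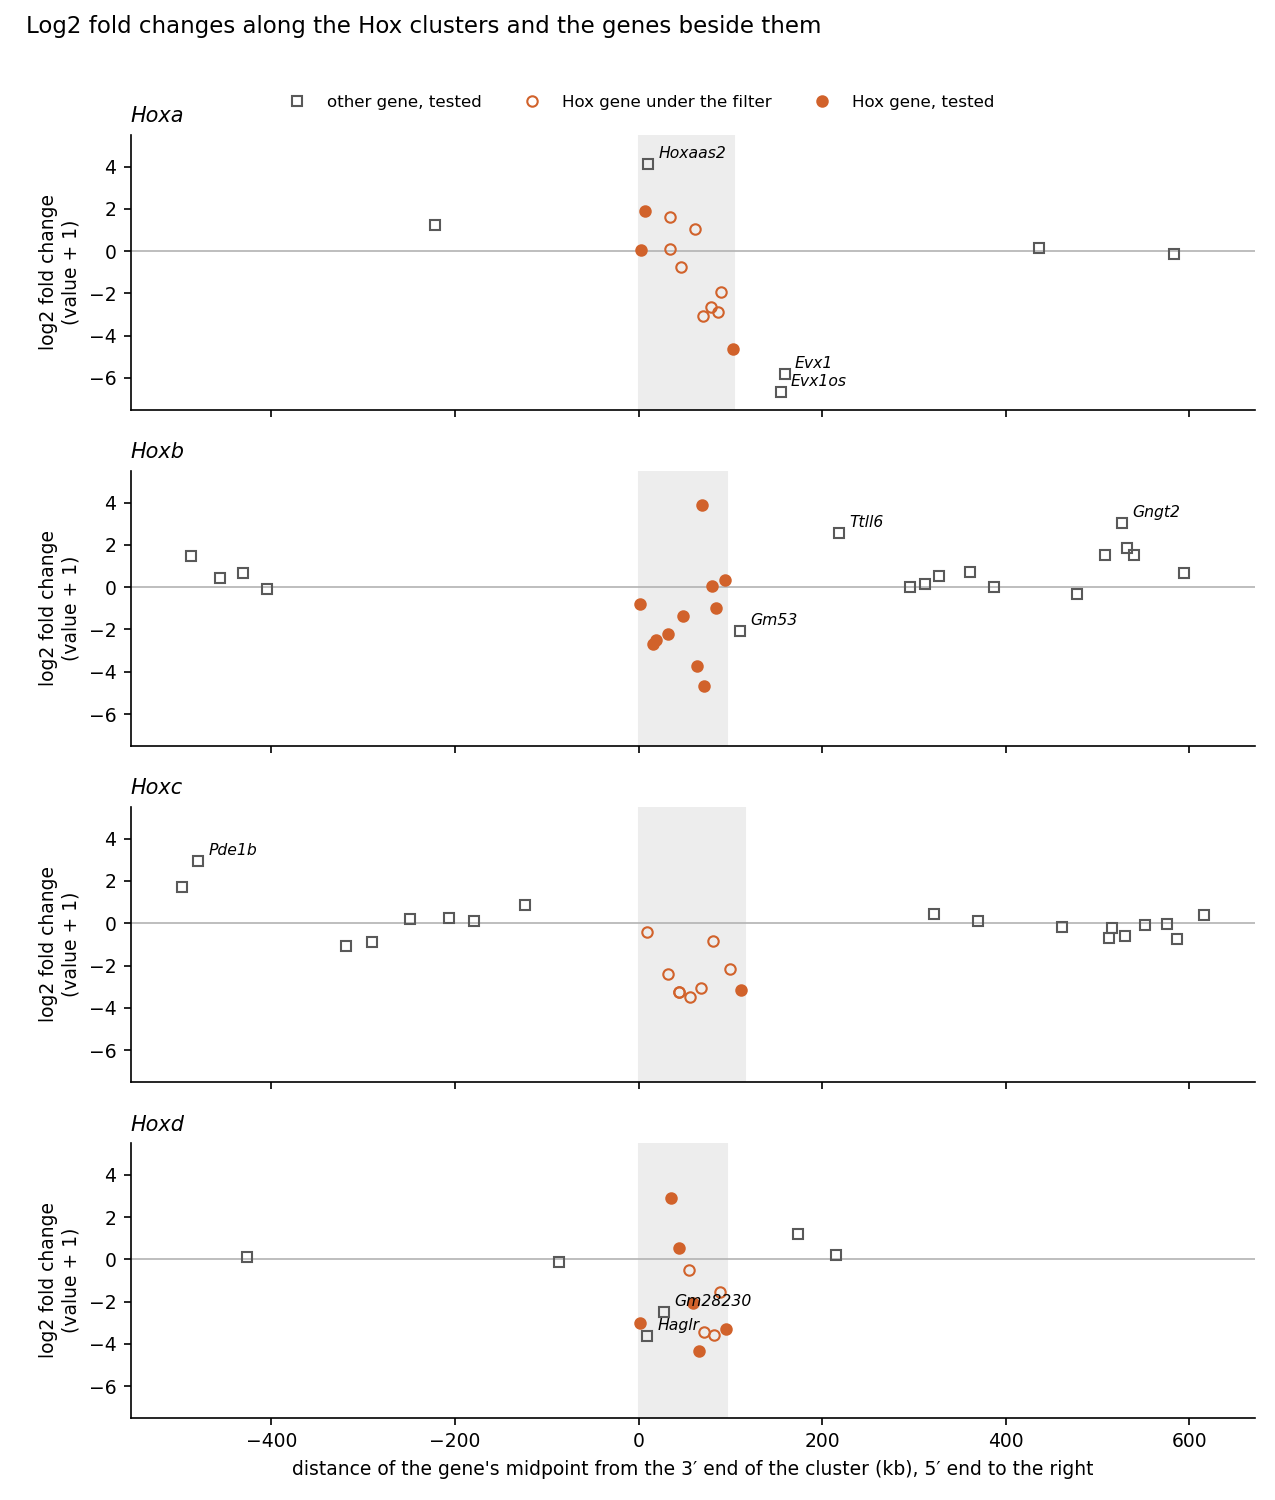
Log2 fold change of Hox genes (circles, open where under the filter and taken from the fit without it) and of the other tested genes within 500 kb (squares) against the distance of the gene's midpoint from the 3′ end of the cluster, in kb, with the cluster shaded. The 5′ part of Hoxa, most of Hoxc and the 5′ part of Hoxd lie below 0, and neighbours outside the clusters lie on both sides of 0.

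Of the genes that act on or with Hox genes, Cdx2, an activator of central and posterior Hox genes in the tail bud, had 348, 299 and 383 normalized counts in 46C-Ctrl and 16.1, 18.2 and 18.5 in the Zhx1-KO libraries (log2 fold change -4.21, SE 0.17, adjusted p = 1.8e-06). It was the 1 tested gene among the Cdx and ParaHox genes. Cdx1 (4.14 to 6.83 against 0 to 3.02) and Cdx4 (0 to 2.93 against 0 to 0.880) were under the filter. Of 9 TALE cofactor genes 4 were lower (44.4%, against 26.4% of all genes tested) and 2 higher (22.2%, against 25.6%), while 3 did not pass. Their median log2 fold change was 0.00. Meis1 (-1.09, SE 0.15, adjusted p = 0.00058) and Meis2 (-0.99, SE 0.15, adjusted p = 0.00091), which bind beside posterior and central Hox proteins, were lower, as was Pknox1 (-0.66). Pknox2 was higher, from 84.6 ± 12.1 to 487 ± 59.6 normalized counts (2.51, SE 0.15, adjusted p = 9.9e-06). Gbx2, a homeobox gene of the anterior hindbrain, was higher (1.46, adjusted p = 0.015), a call that was lost without KO_2 (adjusted p = 0.054).

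Of 17 tested retinoic acid genes 6 were lower (35.3%) and 5 higher (29.4%), while 6 did not pass, shares near the 26.4% and 25.6% of all genes tested. Rdh10, which makes retinaldehyde, was lower (-1.58, SE 0.09, adjusted p = 7.3e-06), and so was Cyp26a1, which degrades retinoic acid (-0.91, SE 0.06, adjusted p = 1.8e-05). Aldh1a2, the main enzyme of retinoic acid synthesis in the embryo, rose from 10.5 ± 1.19 to 97.03 ± 10.6 normalized counts (3.09, SE 0.24, adjusted p = 3.7e-05), and Crabp1, a retinoic acid binding protein of the hindbrain and neural crest, rose from 295 ± 26.6 to 5831 ± 150 (4.30, SE 0.07, adjusted p = 9.9e-08). The Polycomb genes were called about as often as all genes. Of 17, 5 were lower (29.4%), among them Ezh2 (-0.51, adjusted p = 0.00022), Bmi1 (-0.61) and Phc2 (-0.36), and 5 were higher (29.4%), among them Suz12 (0.48, adjusted p = 0.0004) and Ezh1, whose values near 0 are given above and whose call was lost without any library but Ctrl_2 (adjusted p of 0.053 to 0.069). Of 12 Trithorax and H3K27 demethylase genes 6 were lower, among them Kmt2a (-0.76, adjusted p = 0.00021), Men1 (-0.63), Kmt2d (-0.77) and Kdm6b (-0.55), and 0 were higher in limma (0 also at an unadjusted p under 0.05).

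Markers of cell types differed between the groups too, in both directions, and their part in the Hox values was not tested. The counts below stand beside 26.4% of all genes tested that were lower and 25.6% that were higher. Of 6 CP genes that the study followed 5 were lower, a list that the study chose with these cells and that is not independent evidence. They include Hand1 (-4.87), Tbx5 (-4.48), Hand2 (-2.52) and Mef2c (-1.03), and the summed list was 7770 to 8527 normalized counts in 46C-Ctrl and 1081 to 1159 in the Zhx1-KO libraries. Of 11 tested lateral plate mesoderm markers, 3 of them among those CP genes, 8 were lower and 3 higher (sums of 13404 to 14839 against 4974 to 5005). Of 11 primitive streak and paraxial mesoderm markers 7 were lower and 1 higher, with Eomes (-7.42), Mixl1 (-7.41) and Nkx1-2 (-4.19) among the lower (4934 to 5067 against 727 to 736). Of 14 markers of the anterior neural plate and forebrain, where Hox genes are silent, 13 were higher and 0 were lower in limma (0 also at an unadjusted p under 0.05), with Six3 (6.20), Lhx5 (5.12), Sox1 (3.74) and Otx1 (3.74), and sums of 835 to 905 against 3665 to 3710. Sox1 is also the reporter locus of the line. Of 5 midbrain and hindbrain markers 4 were higher, En1 (4.44), Wnt1 (4.69) and Pax2 (4.38) among them, and En2 was lower (-3.71), with sums of 53.8 to 75.1 against 621 to 774. Of the pluripotency markers Pou5f1 (-1.78) and Nanog (-3.87) were lower and Sox2 (1.75) higher (3 lower and 1 higher of 5, sums of 4865 to 4922 against 3029 to 3191). Blood and endothelium markers were lower for 3 and higher for 2 of 6 (855 to 1013 against 1239 to 1422), and endoderm markers lower for 5 of 6 (3078 to 3153 against 1399 to 1463).

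**Figure D5:**
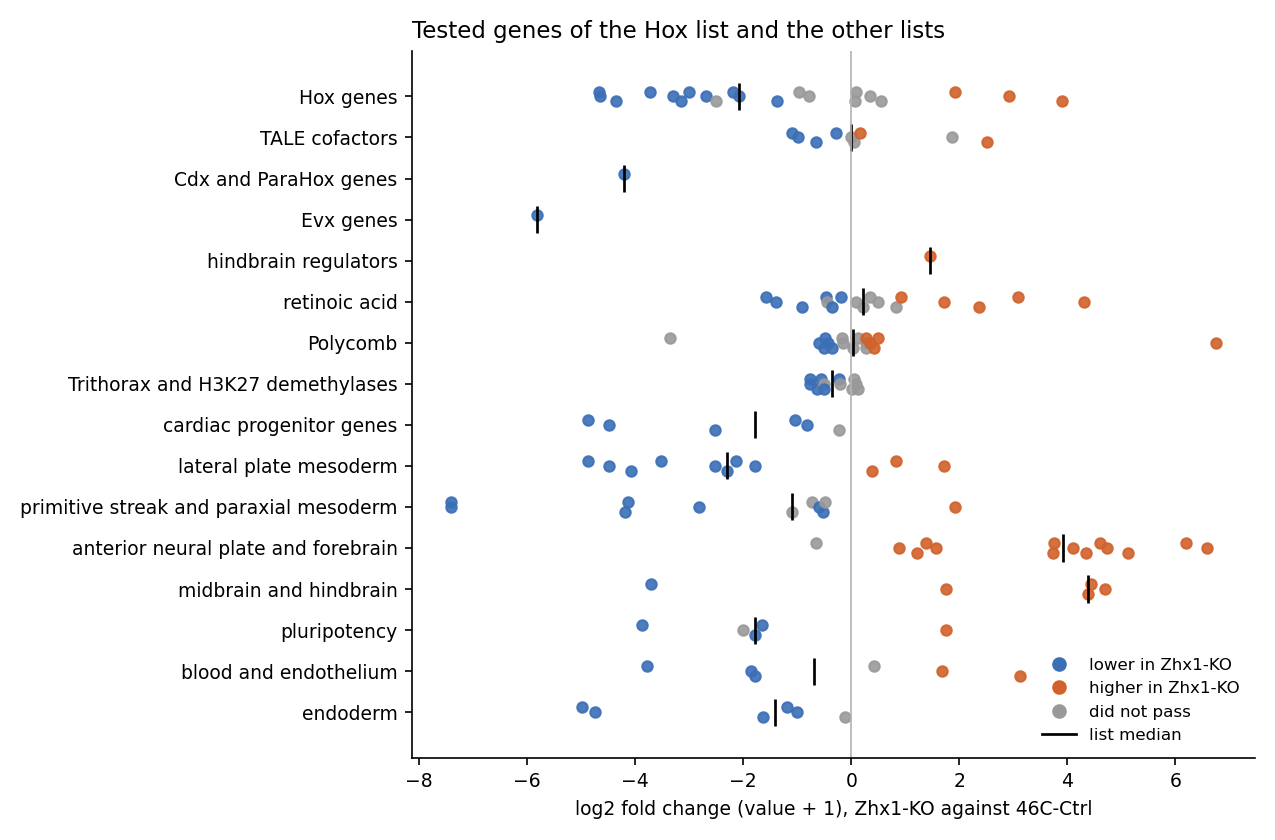
Log2 fold change of each tested gene of the Hox list and of the other lists, with 1 point per gene, coloured by its limma call, and a vertical line at the list median. The Hox median lies at -2.08, and the lists of anterior neural plate and of midbrain and hindbrain markers have medians of 3.92 and 4.38. Among the Hox points, 8 lower and all 3 higher genes passed the filter only through the group where they are high.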

How the data were processed

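Cutadapt 1.18 for trimming, HISAT2 2.1.0 for strand-aware mapping to GRCm38 and StringTie 1.3.4d for FPKM are what the paper's methods state for these reads. Cufflinks and DESeq2 stand in the submitters' processing notes too. The deposited table holds another unit, a signal for each gene, made when the authors scaled gene counts by 1 factor for each library, and its values are whole multiples of a step per library (100% of values within 0.01 of a step). The counting program was not given in the sources used here. Since the values are not raw counts, no count test was run.

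In this work, log2(value + 1) was tested with limma 3.58.1 (R 4.3.3, mean trend, group as the only term) over the 15372 genes averaging at least 10, with Benjamini-Hochberg adjustment over all of them, and genes were called at an adjusted p under 0.05. Intervals are 95% intervals of that fit. Leaving out a library kept the same genes. Positions, exon lengths and overlaps are from GENCODE release M21 of GRCm38. The Hox members and all gene lists were chosen with earlier results of these data known, and 1 Hox row and 2 genes of another list are not reported here. Members with a mean of at least 10 are named with each library's value, from other lists at most 4 members, those of smallest adjusted p, are named, and up to 3 genes on each side of a cluster. The steps were tested on simulated data. Alternatives covered the pseudocount, the filter, the scaling, the trend, the replicate block and each library left out in turn.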

Additional observations from a re-analysis of the deposited data

How the results depend on the processing

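The 11 lower and 3 higher Hox genes stayed at 11 to 12 and 3 to 4 under both other pseudocounts, quantile normalization, a rescaling like TMM, limma without trend and the replicate block (11 and 3), and at 11 to 12 and 3 with each library left out in turn. Without a filter 22 were lower. With a mean of at least 30 only 4 members were tested, of which 3 were lower in limma and 0 higher, since the other called members were under that filter. No Hox call was lost with a library left out, and calls were gained for Hoxb1, Hoxb3os, Hoxb8 and Hoxb9 under 1, 1, 4 and 1 settings. Signs changed for genes that did not pass. Hotairm1 was at -0.20 and Hoxb7 at -0.21 in quantile normalization, and with a library left out they ran from -0.26 to 0.36 and from -0.23 to 0.45, and Snx11 was at 0.029 without KO_1. Per kb of exon, the ratio of the summed means was 0.727 for Hoxa, 0.318 for Hoxb and 0.234 for Hoxd, moved by the weight that long exons carry in the plain sums.

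Same-numbered libraries did not deviate together from their group means (r of 0.00, -0.07 and 0.00 across genes), so the replicate numbers were not taken as pairs, and the replicate block changed no Hox call. Of the other genes named, it ended the calls of Gm28230 (adjusted p = 0.061 in limma) and Tarbp2 (0.077). Depth limits the members near 0, where a value of 0 or 1 step cannot be told from low expression.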
